A study of Mus musculus with 2 samples.

Results

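The genes described here code for the subunits of the RNA polymerases and of Mediator. They were taken by symbol from a table of counts per gene and cell, as the symbols that start with Polr1, Polr2, Polr3 or Polrm or with Med and a digit. Of 17774 genes in the table, 56 matched. They comprised 5 genes of RNA polymerase I (Pol I), 13 of RNA polymerase II (Pol II), 8 of RNA polymerase III (Pol III), the mitochondrial polymerase *Polrmt*, 28 Mediator genes and *Med9os*, which is no subunit. *Med9os* is annotated as an antisense noncoding RNA and lies on the other strand just before *Med9*, without overlapping it. A filter that asked for detection in 3 or more cells left 52 of the 56 among 15947 genes, and it removed *Med11*, *Med19*, *Polr3k* and *Med9*, which had 2, 2, 1 and 0 counts in all.

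The cells were GFP-positive cones, the photoreceptors of daylight and colour vision, sorted 1 per well from retinae of C57BL/6 mice at PN24 (postnatal day 24). Every animal carried both the *Pde6c*cpfl1 allele, a mutation of the cone phosphodiesterase after which cones degenerate, and Chrnb4.eGFP, a transgene in which the *Chrnb4* promoter drives GFP in cones. There was 1 library from uninjected retinae and 1 from retinae that had received a single injection of GSK-J4 into the vitreous at PN14, 10 days before collection, for a concentration of 10 µM. GSK-J4 is an inhibitor of the Jumonji demethylases of lysine 27 on histone H3. The comparison addressed which transcripts differ in these cones after the inhibitor, and it had no vehicle-injected library.

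Each library filled 1 plate, so plate and treatment cannot be told apart, no difference has a replicate check and no test was run. After filtering, the uninjected library held 82 cells with a median of 8118 counts (860 to 98250), and the GSK-J4-treated library held 64 cells with a median of 2335.5 (420 to 15371). Total counts were 1113424 and 208578. The 11 cone markers took 2.59% of the counts of uninjected cells and 0.213% of those of treated cells, in which *Opn1sw*, *Gngt2*, *Cngb3*, *Pde6c* and *Guca1a* had no count. *Opn1mw* and *Pde6h* gave 304 and 92 of the 445 cone marker counts that remained. The treated library thus held few of the transcripts that define its labelled cell type, and with 1 library per condition no result could be given without it. Rod markers took 0.145% and 0.0254%, Müller glia markers 0.0839% and 0.0302%, and bipolar, amacrine, ganglion, microglia and pigment epithelium markers at most 0.00959% in either library. Olfactory and vomeronasal receptor genes, which cones should lack, took 0.626% and 1.47%. The part of depth, plate, cell identity and background in the differences given here was not tested. The names of the treated cells also hold the word adult, while the labels give PN24 for both libraries.

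Pol I makes the precursor of the large ribosomal RNAs, Pol II makes messenger RNAs and Pol III makes transfer RNAs and the small ribosomal RNA. Each polymerase has its own pair of large subunits that form the catalytic centre, several subunits of its own, and a set of small subunits that all 3 polymerases share. Mediator is a complex with head, middle and tail parts around a scaffold subunit, which carries signals from DNA-bound activators to Pol II, and a detachable kinase module controls its contact with the polymerase.

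Over the 52 genes, uninjected cells held 2311 counts, which was 0.208% of all counts, and treated cells held 297, which was 0.142%. The groups did not move alike. Groups followed the symbol. Subunits that all the polymerases share thus counted as Pol II, and *Polr1c* and *Polr1d*, which Pol I and Pol III share, as Pol I. Counts of genes with a Polr2 symbol were 4.09-fold lower in treated cells as a share of all counts. Those of genes with a Polr1 or Polr3 symbol were 1.79 and 1.54 times as high, and the Mediator share was 0.904 times that of uninjected cells. The shared subunits had ratios of 0.273 (all polymerases) and 0.302 (Pol I and Pol III). The values for Polr1 and Polr3 symbols therefore do not describe all subunits of Pol I or Pol III. The average log-fold used from here on is the natural log of the mean count per 10000 counts of a cell, plus 1, in treated cells minus the same in uninjected cells. A gene is said to lie past the limit when its log-fold is below -0.3 or above 0.3. Of all genes, 11.8% lay below -0.3 and 12.6% above 0.3, with a median log-fold of 0.03. Of the 52 genes here, 15 lay below and 5 above, with a median of -0.10. Low genes seldom pass such a limit, and among the 7682 genes detected in 10% or more of the cells in 1 library or both 24% lay below and 20.4% above. In that class were 38 of the genes described here, with the same 15 below and 5 above and a median of -0.17, against -0.0050 for all genes of the class.

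The Pol II subunits carried most of the lower values. Of 13 genes, 10 lay below -0.3 and none above 0.3, and the median log-fold was -0.42. Together they had 1091 counts in uninjected cells, 0.0980% of all counts (95% Poisson interval 0.0923 to 0.104), and 50 counts in treated cells, 0.0240% (0.0178 to 0.0316). The ratio of these shares was 0.245 (0.180 to 0.325). A Pol II subunit was found in 71 uninjected cells, which was 86.6%, and in 15 treated cells, which was 23.4%. Thinned to 867 counts per cell, the expected shares of cells were 47.5% and 12.3%, with 1 uninjected and 14 treated cells left out. The intervals given throughout cover counting error only, and counts of a gene were often concentrated in few cells, so they are too narrow as statements about cones. The study had itself picked out Pol II subunits from these libraries, and their count is therefore not independent evidence of a direction.

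**Figure D1:**
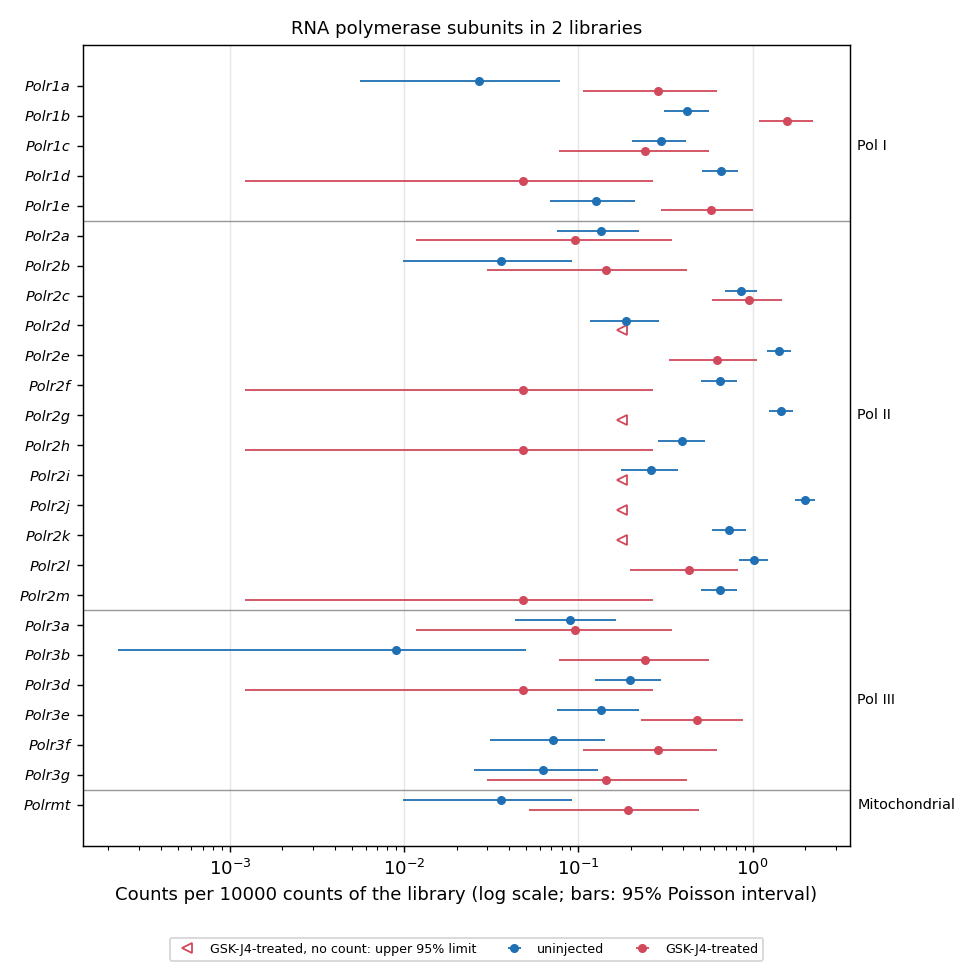
Counts per 10000 counts of the library (log axis) for 25 polymerase genes grouped by symbol, with uninjected cells in blue and GSK-J4-treated cells in red. Bars are 95% Poisson intervals, and open triangles mark the upper limit where treated cells had no count. Most small Pol II subunits lie to the left in treated cells, whereas the large Pol I subunits *Polr1a* and *Polr1b* lie to the right.

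The subunits that only Pol II contains were *Polr2c*, *Polr2d*, *Polr2g*, *Polr2i* and *Polr2j*, with 531 counts in uninjected and 20 in treated cells. *Polr2j*, which pairs with *Polr2c* at the assembly core, had 222 counts (194 to 253) in 27 uninjected cells and none in treated cells. Its log-fold was -0.83, and the 95% upper limit of the ratio of its shares, treated over uninjected, was 0.0894. *Polr2g*, of the stalk that contacts the nascent RNA, had 163 counts (139 to 190) in 33 cells and none in treated cells, an upper limit of 0.122, with a log-fold of -0.78. The other stalk gene, *Polr2d*, had 21 counts in uninjected cells and none in treated cells. The upper limit of its ratio was 1.03, so a lower share was not separable from counting error, although its log-fold was -0.49. *Polr2i*, which aids proofreading, had 29 and 0, an upper limit of 0.724, and its log-fold of -0.23 stayed inside the limit. All 4 of these genes were thus without a count in the treated library, where a count of 0 allows up to 3.69 counts. *Polr2c* was the exception. It had 96 counts in 29 uninjected cells and 20 in only 3 treated cells, 11 of them in 1 cell. Its log-fold, in which each cell weighs the same, was -0.46, whereas the ratio of summed shares was 1.11 (0.650 to 1.81) and the log-fold from summed counts was 0.051. The 20 treated counts of this class were all from *Polr2c*.

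The 5 subunits shared by all 3 polymerases were lower together. *Polr2e*, *Polr2f*, *Polr2h*, *Polr2k* and *Polr2l* each lay below -0.3, and their summed counts were 469 and 24, a ratio of 0.273 (0.173 to 0.412). *Polr2k* had 82 counts in 22 uninjected cells and none in treated cells, and its log-fold of -1.06 was the lowest of all 52 genes. *Polr2l* was found in 37 uninjected cells, 45.1%, with 113 counts, and in 3 treated cells with 9 counts, 7 of them in 1 cell, for a log-fold of -0.61. *Polr2e* had 158 and 13 counts with a log-fold of -0.42, *Polr2f* had 72 and 1 with -0.41, and *Polr2h* had 44 and 1 with -0.31. In *Polr2f*, 35 of the 72 uninjected counts came from 1 cell. *Polr2m*, which codes for a protein that binds Pol II and blocks its access to initiation factors, had 72 counts in 27 uninjected cells and 1 in treated cells, with a log-fold of -0.39.

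The catalytic pair of Pol II looked different. *Polr2a*, the largest subunit with the repeated tail that is phosphorylated during transcription, had 15 counts in uninjected and 2 in treated cells, and its partner *Polr2b* had 4 and 3. Their joint ratio was 1.40 (0.410 to 3.89), so neither a lower nor a higher share was detectable at this depth. *Polr2a* had a log-fold of 0.18 and yet a summed ratio of 0.712 (0.0790 to 3.06), which shows how little 2 counts fix. Without the 2 catalytic subunits, the other 11 Pol II genes had 1072 and 45 counts, a ratio of 0.224 (0.162 to 0.302).

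The Pol I genes pointed both ways. The share of the 5 genes was 0.0153% (0.0131 to 0.0177) in uninjected and 0.0273% (0.0207 to 0.0354) in treated cells, with 170 and 57 counts. The large subunits *Polr1a* and *Polr1b* had 50 counts in uninjected and 39 in treated cells, a ratio of 4.16 (2.67 to 6.46). *Polr1b* had 47 counts in 13 uninjected cells and 33 in 17 treated cells, which were 15.9% and 26.6% of cells, with a log-fold of 0.60. This was the only polymerase gene with more than 20 counts in treated cells. *Polr1a* had 3 and 6 counts, a ratio of 10.7 (2.28 to 66.0). *Polr1e*, which belongs to a pair of subunits that act in initiation and elongation, had 14 and 12 counts with a log-fold of 0.33. Against these, *Polr1d*, a small assembly subunit that Pol I and Pol III share, had 73 counts in 29 uninjected cells and 1 in treated cells, with a log-fold of -0.56 and a ratio of 0.0731 (0.00183 to 0.420). Its partner *Polr1c* had 33 and 5 counts and a log-fold of 0.02.

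No gene with a Polr3 symbol lay past the limit. The 7 genes that passed the filter had 104 and 30 counts, which were 0.00934% (0.00763 to 0.0113) and 0.0144% (0.00970 to 0.0205), and the interval of their ratio of 1.54 (0.990 to 2.33) included 1. The large subunits *Polr3a* and *Polr3b* had 10 and 2 and 1 and 5 counts. Their joint ratio was 3.40 (1.12 to 9.60), on only 11 uninjected and 7 treated counts. *Polr3e* had 15 and 10 counts with a log-fold of 0.28, *Polr3f* 8 and 6 with 0.08, and *Polr3g* 7 and 3 with 0.05. The products of *Polr3f* and *Polr3g* belong to a subcomplex that acts in promoter opening. *Polr3d* had 22 and 1 counts with a log-fold of -0.17. The Pol III genes thus did not share a direction.

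*Polrmt* transcribes the mitochondrial genome. It had 4 counts in each library, a ratio of 5.34 (0.994 to 28.7), with a log-fold of 0.20. The median mitochondrial share of counts per cell was 0.952% in uninjected and 0.0146% in treated cells.

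As a whole, Mediator took a like share of counts in both libraries, but its parts did not share a direction. Its 25 genes that passed the filter had 909 counts in uninjected cells, 0.0816% (0.0764 to 0.0871), and 154 in treated cells, 0.0738% (0.0626 to 0.0865). Below -0.3 lay *Med28*, *Med29* and *Med21*, above 0.3 lay *Med13l*, *Med12* and *Med16*, and the median log-fold was -0.04. These 3 of 25 on each side lie near the 11.8% and 12.6% of all genes, so the counts are no result about Mediator. A Mediator gene was found in 81.7% of uninjected and 68.8% of treated cells, and in an expected 38.4% and 42.3% after thinning. Thinning thus placed treated cells above uninjected ones, unlike for Pol II.

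**Figure D2:**
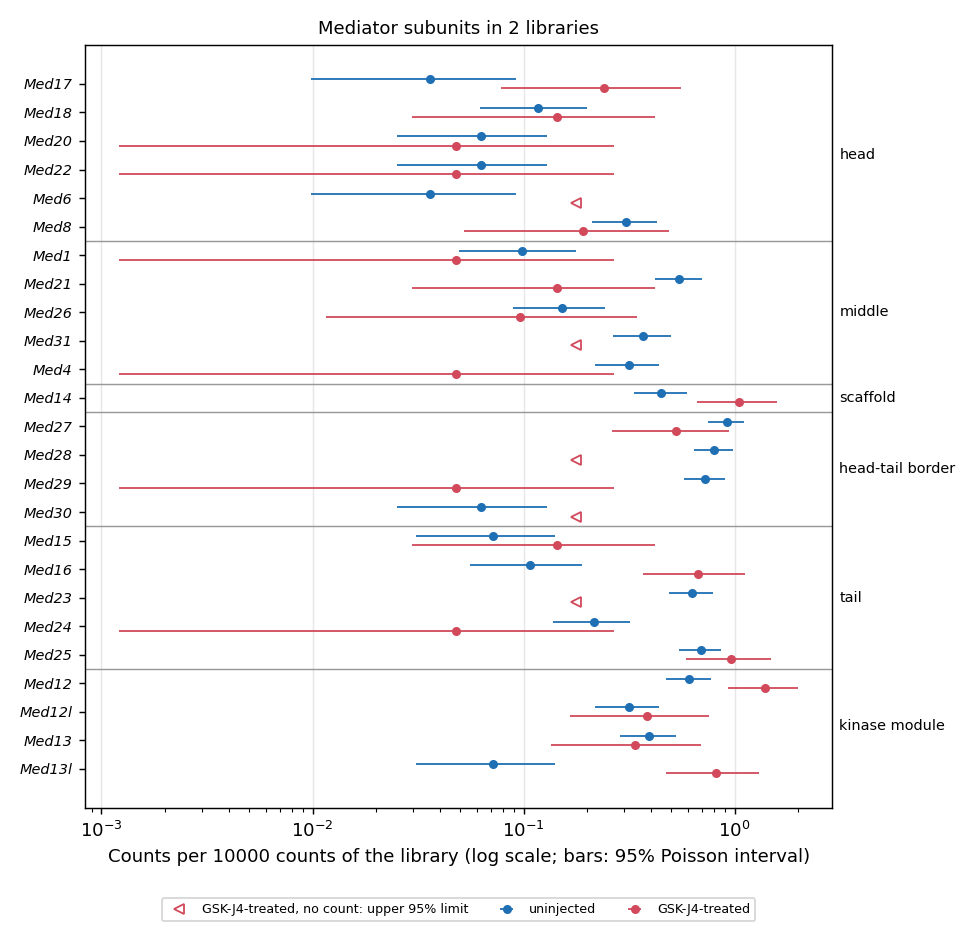
Counts per 10000 counts of the library (log axis) for 25 Mediator genes by part of the complex, drawn as for the polymerases, with uninjected cells in blue, GSK-J4-treated cells in red, 95% Poisson intervals as bars and open triangles for an upper limit. *Med28*, *Med29* and *Med31* lie to the left in treated cells, and *Med12*, *Med13l*, *Med14* and *Med16* to the right.

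The kinase module was higher in treated cells. Its 4 genes in this set, *Med12*, *Med12l*, *Med13* and *Med13l*, had 155 counts in uninjected and 61 in treated cells, a ratio of 2.10 (1.54 to 2.84), and a median log-fold of 0.31. *Med12*, which activates the kinase, was found in 9 uninjected cells with 68 counts, 49 of them in 1 cell, and in 17 treated cells with 29 counts, for a log-fold of 0.56. *Med13l*, a paralog of the subunit that links the module to Mediator, had 8 and 17 counts and the highest log-fold of the 52 genes, 0.99. Without its top cell in each library that value was 0.27, inside the limit. The paralogs *Med12l* and *Med13* had 35 and 8 and 44 and 7 counts, with log-folds of 0.07 and 0.06. Both lie near 0, so the higher share of the module came from *Med12* and *Med13l*.

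The scaffold and tail held further higher values. *Med14*, the scaffold that joins the 3 main parts, had 50 and 22 counts, a ratio of 2.35 (1.35 to 3.95), and a log-fold of 0.27. In the tail, where many activators bind, *Med16* was found in 8.54% of uninjected and 18.8% of treated cells with 12 and 14 counts and a log-fold of 0.40. *Med25* had 77 and 20 counts with 0.03, and *Med24* had 24 and 1 with -0.12. *Med23*, a tail subunit that several signal-dependent activators contact, had 70 counts in uninjected cells, 49 of them in 1 cell, and none in treated cells, with an upper limit of the ratio of 0.289 and a log-fold of -0.26. As a class the tail had a ratio of 1.06 (0.729 to 1.51).

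Genes where the head meets the tail, and those of the middle, had lower summed shares, but only 3 of these 9 genes lay below -0.3. *Med27*, *Med28*, *Med29* and *Med30* had 279 and 12 counts, a ratio of 0.230 (0.117 to 0.408). *Med28* had 89 counts in 29 uninjected cells, 35.4%, and none in treated cells, with an upper limit of the ratio of 0.226 and a log-fold of -0.85. *Med29* had 81 and 1 counts with -0.55, and *Med27* had 102 and 11 with -0.16. The middle genes *Med1*, *Med4*, *Med21*, *Med26* and *Med31* had 165 and 7 counts, a ratio of 0.226 (0.0896 to 0.477). Of these, *Med21* had 61 and 3 counts with a log-fold of -0.32, *Med31* had 41 and 0 with -0.19, *Med4* had 35 and 1 with -0.18, *Med26* had 17 and 2 with -0.12, and *Med1*, which nuclear receptors contact, had 11 and 1 with -0.08. Without the top cell of each library, *Med28* alone of the Mediator genes stayed below -0.3, at -0.64. The head genes had 69 and 14 counts and a ratio of 1.08 (0.563 to 1.94), among them *Med8* with 34 and 4, the latter all in 1 cell, and *Med18* with 13 and 3. The 6 other Mediator genes were *Med6*, *Med15*, *Med17*, *Med20*, *Med22* and *Med30*. Their counts ranged from 4 to 8 in uninjected cells and from 0 to 5 in treated cells, and their log-folds from -0.11 to 0.17. *Med9os* had 33 and 2 counts and a log-fold of -0.35.

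Several of the lower genes had no count left in treated cells. Of the 31 genes here with at least 20 counts in uninjected cells, 8 had no count in treated cells and another 8 had 1. Among all 6090 genes with at least 20 uninjected counts, 15.8% had no count in treated cells. The 8 were *Polr2d*, *Polr2g*, *Polr2i*, *Polr2j*, *Polr2k*, *Med23*, *Med28* and *Med31*, of which *Med23* alone has a coding sequence over 1000 bases.

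The lower and higher genes also differed in the length of their coding sequence. Length and log-fold are those of the 51 genes with a coding sequence in GENCODE vM21. The longest coding sequence among the transcripts of a gene was used, so a gene may also have shorter ones. The length cuts were chosen after the values had been seen. Under 1000 bases there were 25 genes, with a median log-fold of -0.23, 12 below -0.3 and none above 0.3. From 2000 bases on there were 19 genes, with a median of 0.17, none below -0.3 and 4 above 0.3. The 7 genes between had a median of -0.12. Genes of these lengths differed in the same order over the whole table. Of 4409 genes under 1000 bases 25.0% lay below -0.3 and 7.82% above 0.3, and of 4499 genes of 2000 bases or more 4.65% lay below and 20.4% above. Genes under 1000 bases took 36.2% of the counts of uninjected and 17.2% of those of treated cells, and genes of 2000 bases or more 29.4% and 46.0%. Across the 51 genes, log-fold and log10 coding length had a Pearson r of 0.70 and a Spearman rho of 0.74. Across the 14116 genes with a coding sequence, these were 0.33 and 0.31. Within Pol II (13 genes) r was 0.75 and rho 0.63, and within Mediator (25 genes) 0.59 and 0.61. These are descriptions over genes of the same 2 libraries, and genes are not replicates. Of the 10 Pol II genes below -0.3, 8 have a coding sequence under 1000 bases, all but *Polr2c* and *Polr2m*, as do *Polr1d*, *Med21*, *Med28* and *Med29*. The large catalytic subunits and the kinase module are long, so subunit role and coding length cannot be told apart in these genes.

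**Figure D3:**
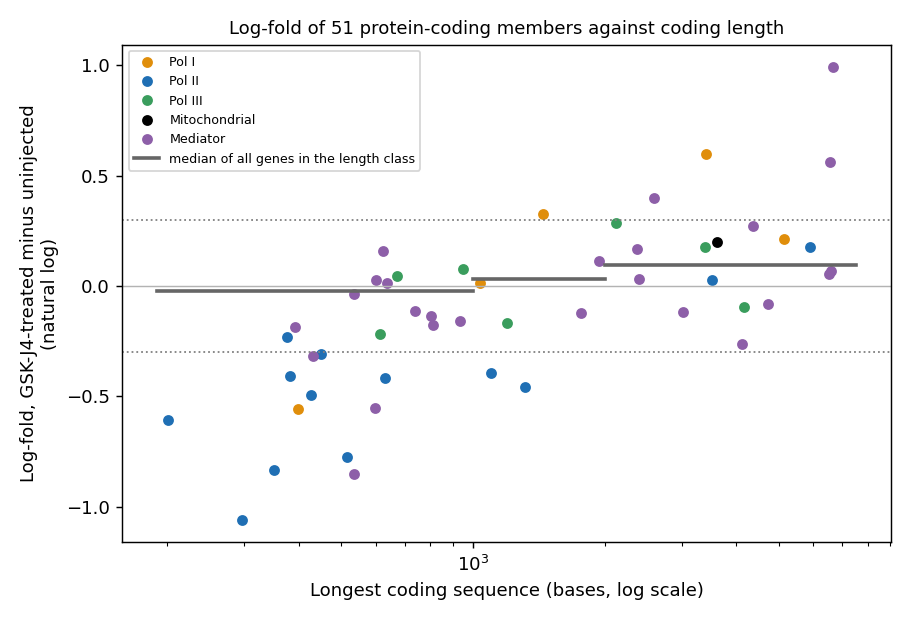
Log-fold (natural log, GSK-J4-treated minus uninjected) of 51 genes against the length of the longest coding sequence in bases (log axis), coloured by complex. Dotted lines mark -0.3 and 0.3, and grey lines the median of all genes in each length class. The short genes reach down to -1.06, and no gene of 2000 bases or more lies below -0.3.

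The counts of several of these genes differed between the sides of the uninjected plate. Columns 1 to 6 held 39 uninjected cells and 546722 counts, and columns 7 to 12 held 43 cells and 566702 counts. Of the 31 genes with at least 20 uninjected counts, 11 differed at least 4-fold in share between the sides, 6 higher in columns 1 to 6 and 5 in columns 7 to 12, a limit set after the values had been seen, with a side without a count set at 3 counts. Among all 6090 such genes 29.7% did so, and the median fold was 2.45 for the 31 genes and 1.93 for all. *Med29* had 78 counts in 19 cells of the first side against 3 in 3 cells of the other, and *Polr2f* 69 in 18 cells against 3 in 3 cells. The reverse held for *Med28*, with 9 counts in 4 cells of the first side and 80 in 25 cells of the other. *Polr2j* had 27 counts in 7 cells and 195 in 20 cells, and *Polr2h* 5 in 3 cells and 39 in 19 cells. All 68 uninjected counts of *Med12* lay in columns 1 to 6, and its log-fold was 0.02 between the cells of those columns and 1.12 between those of columns 7 to 12.

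**Figure D4:**
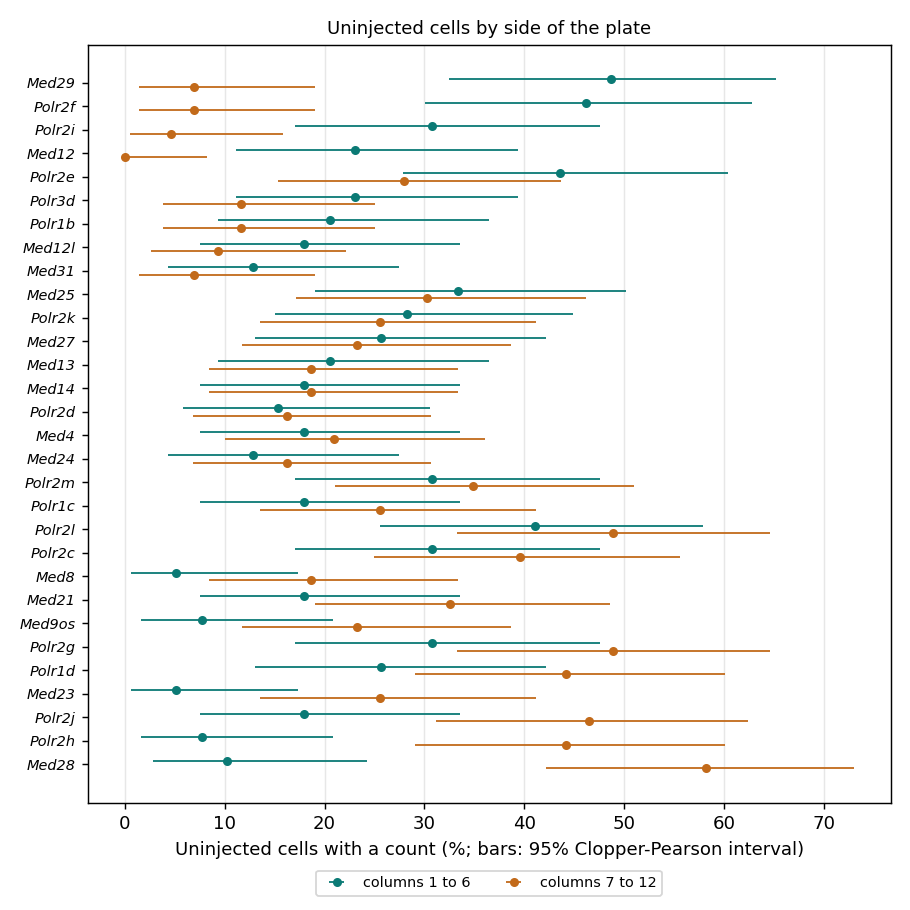
Share of uninjected cells with a count (%) for 30 of the genes with at least 20 uninjected counts, in columns 1 to 6 (green, 39 cells) and columns 7 to 12 (orange, 43 cells) of the plate, with 95% Clopper-Pearson intervals as bars. *Med29*, *Polr2f* and *Med12* were found mainly on the first side, and *Med28*, *Polr2h* and *Polr2j* mainly on the other.

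The share of Pol II, in contrast to that of its single genes, was alike on both sides of the uninjected plate, at 0.0940% and 0.102%, and was 0.0339% and 0.0166% on the sides of the treated plate. Both treated values lay below both uninjected ones, but the share of all genes for which this holds was not determined. For Pol I, uninjected shares were 0.0112% and 0.0192% and treated ones 0.0351% and 0.0216%, and the ratio in columns 7 to 12 alone was only 1.12. For Pol III the sides of the uninjected plate, at 0.0155% and 0.00335%, enclosed the treated values of 0.0147% and 0.0141%. For Mediator, uninjected shares of 0.0860% and 0.0775% overlapped treated shares of 0.0634% and 0.0815%. The wells of 1 plate are not replicates of a treatment.

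Per cell, an uninjected cone showed a median of 6.5 of the 52 genes (0 to 35) and a treated cell 2 (0 to 12). No gene of the 52 was found in 4 uninjected cells, 4.88%, and in 11 treated cells, 17.2%. The number found followed the depth of the cell, with a Spearman rho of 0.87 across the 82 uninjected and 0.82 across the 64 treated cells. After thinning to 867 counts, which left out 1 uninjected and 14 treated cells below that depth, the expected number averaged 1.41 in uninjected and 0.989 in treated cells.

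**Figure D5:**
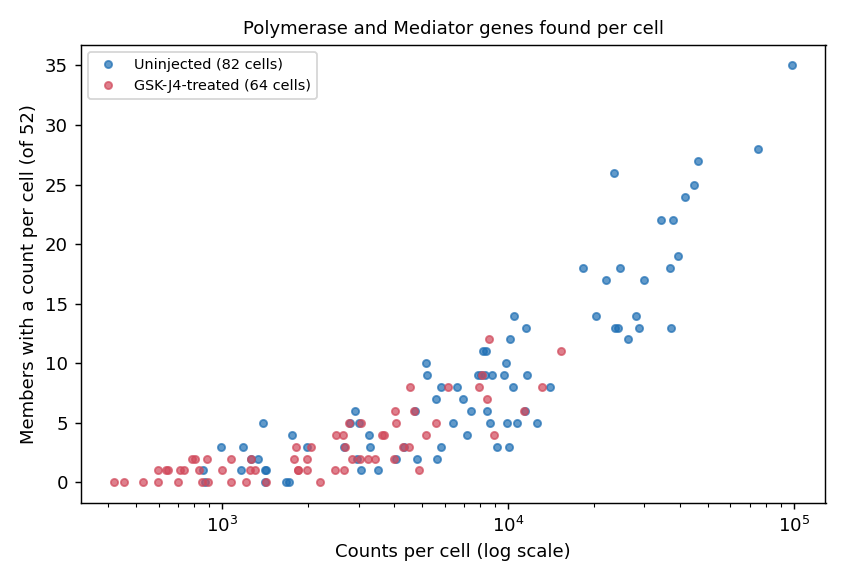
Number of the 52 polymerase and Mediator genes found in a cell against the counts of the cell (log axis), each point 1 cell, uninjected in blue (82 cells) and GSK-J4-treated in red (64 cells). The number climbs with depth in both libraries, up to 35 in uninjected and 12 in treated cells.

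Other genes of the transcription machinery lay on both sides of the limit. From a list of 72 initiation, elongation and assembly factors and of subunits with other symbols, 60 passed the filter, of which 11 lay below -0.3 and 6 above 0.3, with a median log-fold of 0.01, beside 11.8% below and 12.6% above for all genes. Their share of counts was 0.227% in uninjected and 0.253% in treated cells. Of 40 Pol II factors 7 lay below and 3 above, of 12 Pol III factors 3 and 2, and of 8 Pol I factors 1 and 1. *Supt4a*, a short elongation factor gene, had 276 counts in uninjected cells and none in treated cells, with a log-fold of -1.15. *Gtf3c3*, of the factor that recognises transfer RNA genes, had 295 and 170 counts with 0.58, but 101 of the 170 came from 1 treated cell. *Ccnc*, the cyclin of the Mediator kinase, had 221 and 89 counts with 0.42, of which 54 of the 89 came from 1 cell. *Gtf2e2*, of the general factor TFIIE, had 73 and 20 counts with -0.04. Subunits with other symbols differed among themselves. *Znrd1* of Pol I had 17 counts in uninjected cells and none in treated cells with a log-fold of -0.33, and *Crcp* of Pol III had 97 and 1 with -0.38, whereas *Cd3eap* and *Twistnb* of Pol I had 0 and 3 and 2 and 2 counts, both with 0.08. They and the kinase gene *Cdk8*, with 12 and 10 counts and a log-fold of 0.49, were named here after their values had been seen.

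The promoters of the most divergent genes are given for the bases just before the transcription start, from RefSeq on GRCm38.p6. They belong to the 3 lowest and the 3 highest genes past the limit that had 1 promoter window and a start found in a GENCODE transcript. Each line holds the 100 bases before the RefSeq start, 5′ to 3′ on the strand of the gene. By the GENCODE coordinates, the window of *Polr1d* lies inside the gene. Those of *Polr2j*, *Med12* and *Med13l* reach into their genes, and that of *Polr1b* does so by its last base. Capitals mark matches on either strand. The letters searched for a TATA box were TATAAA. Those of a GC box were GGGCGG. The CCAAT box is spelled by its name. An ETS site was taken as CCGGAAG. In *Med28* a TATA box and a CCAAT box overlap.
Polr2j, chr5:136116591-136116690 (+ strand): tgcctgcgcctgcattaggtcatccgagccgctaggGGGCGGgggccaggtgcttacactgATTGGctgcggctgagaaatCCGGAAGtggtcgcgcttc
Med28, chr5:45520129-45520228 (+ strand): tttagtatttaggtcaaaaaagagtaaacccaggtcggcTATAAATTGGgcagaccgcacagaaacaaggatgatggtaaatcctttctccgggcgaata
Polr1d, chr5:147077246-147077345 (+ strand): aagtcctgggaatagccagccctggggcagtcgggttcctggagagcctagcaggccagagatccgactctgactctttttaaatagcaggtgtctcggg
Polr1b, chr2:129100896-129100995 (+ strand): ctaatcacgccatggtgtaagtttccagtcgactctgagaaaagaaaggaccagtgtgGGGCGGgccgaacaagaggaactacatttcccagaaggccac
Med12, chrX:101273991-101274090 (+ strand): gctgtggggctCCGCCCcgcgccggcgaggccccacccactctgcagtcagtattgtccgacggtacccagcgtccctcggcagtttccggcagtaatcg
Med13l, chr5:118560619-118560718 (+ strand): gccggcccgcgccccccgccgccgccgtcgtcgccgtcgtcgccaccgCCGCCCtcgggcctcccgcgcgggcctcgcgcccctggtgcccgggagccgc

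These windows share little. *Polr2j* holds a GC box, a CCAAT box and an ETS site, *Polr1d* none of these letters, and the 3 higher genes *Polr1b*, *Med12* and *Med13l* a GC box each. Searched over 250 bases before the start, 60.0% of the 50 windows of 46 genes held a GC box, against 50.2% of 14918 windows of the genes that passed the filter and 32.7% of all 32851 windows. An ETS site was in 22.0%, 10.6% and 6.91% of these windows, and the NRF1 core GCGCATGC in 14%, 3.55% and 2.26%. TATA boxes were in 10.0%, 8.20% and 12.4%, and CCAAT boxes in 30%, 33.9% and 33.8%. Of the 14 windows of genes below -0.3, 42.9% held a CCAAT box and 14.3% an ETS site, and the 5 windows of genes above 0.3 held neither. A match to these letters is a description of sequence and says nothing of a factor bound there.

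Whether reads were counted by strand is not given in the sources used here. On the opposite strand, the span of *Dok4* covers 3575 exonic bases of *Polr2c* and that of *Brip1os* covers 8348 of *Med13*. These spans include introns, and how far reads of these pairs are mixed was not determined. *Polr2i*, *Polr2j*, *Polr2h*, *Polr2f*, *Polr1e*, *Med29*, *Med21*, *Med12l*, *Med31*, *Med26* and *Med27* are among the others that overlap a gene on the other strand. On the same strand, the span of *Gm20517* covers 7317 exonic bases of *Med20*, which counting by strand would not separate.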

How the data were processed

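Single GFP-positive cones were sorted into 96-well plates and sequenced from the 5' and 3' ends of transcripts by a protocol adapted from SMARTseq2 and MARS-seq. Per the study's methods, the authors removed PCR duplicates by molecular identifier and position, counted reads per gene with featureCounts, and deposited raw counts per gene and cell, without normalization. The submitters' processing notes name the build GRCh38, although the samples are mouse. Coordinates and coding lengths here come from GENCODE vM21 on GRCm38.

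Genes detected in under 3 cells, and cells with under 200 genes or over 5% mitochondrial counts, were left out, which kept 146 of 151 cells. The treated library held fewer cells than the study states. No batch correction or doublet caller was applied. Log-folds used counts per 10000 with a pseudocount of 1 (Python 3.11.15, pandas 2.3.3, numpy 2.4.6, scipy 1.17.1), and the limit of 0.3 follows the study. Summed counts have exact Poisson intervals, shares of cells Clopper-Pearson intervals and ratios exact conditional intervals, all at 95%. No cell name occurred in both libraries (0 identical names), and 54 well positions were used on both plates. The calculation was checked on simulated counts, in which only genes with a mean above 1 per 10000 in uninjected cells were changed. Counts were drawn as Poisson, without concentration in few cells. Many genes described here have lower means and more concentrated counts, which the check does not cover.

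Named were the polymerase genes (the values of 1 gene are not reported here, though group sums include it), Mediator genes found in at least 10% of cells or with at least 30 counts in either library, and of the other factors the 3 with most counts in each library. The genes and lists were chosen with earlier results of these data known. Alternatives covered scaling, pseudocount, filters, a minimum of counts per cell, plate sides, single cells and the limit. *Polr3c*, *Polr3gl*, *Med7* and *Med10* were not analysed here.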

Additional observations from a re-analysis of the deposited data

How the results depend on the processing

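With 1 library per condition, leaving out a replicate was not possible, and plate and condition cannot be told apart. No paired analysis was possible because each condition had 1 library and no test was run. At this depth a treated library total of 208578 counts leaves most single genes here with fewer than 10 counts.

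Of the 20 genes past the limit, 18 kept their sign under all 9 alternatives, and 2 of 180 values changed it: *Polr2c* was 0.051 with counts summed over each library, and *Med9os* was 0.051 in columns 1 to 6 alone. This says little for many of them. *Polr2d*, *Polr2g*, *Polr2j*, *Polr2k* and *Med28* had no count in the kept treated cells, so their log-fold could not rise above 0 in those cells. *Polr2f*, *Polr2h*, *Polr2m*, *Polr1d* and *Med29* had 1 treated count each. The counts of genes past 0.3 moved more. The Pol II count below -0.3 was 4 in place of 10 at a limit of 0.5. It was 7 with summed counts, with at least 500 genes per cell and in columns 7 to 12 alone. With size factors or without the top cell it was 8, and with a pseudocount of 0.1 it was 11. The Pol II count above 0.3 was 1 with a pseudocount of 0.1 and in columns 7 to 12 alone. The Pol I count above 0.3 was 1 in place of 2 with median-ratio size factors, without the cell with the most counts and at a limit of 0.5, and 0 in columns 7 to 12 alone, and below -0.3 it was 0 in columns 1 to 6 alone. The Pol III count, 0 on both sides, became 3 lower and 4 higher with a pseudocount of 0.1 and 1 lower and 1 higher in columns 1 to 6 alone. It became 1 higher among cells of at least 867 counts or with at least 500 genes per cell. No alternative drew the cells down to an equal depth for the log-folds. The Mediator count of 3 lower became 5 with summed counts, 7 with size factors, 13 with the pseudocount of 0.1, and 1 in columns 1 to 6 alone or without the top cell, and that of 3 higher became 1 with size factors and 7 with the pseudocount of 0.1. That pseudocount also moved the median of all genes from 0.03 to 0.18.

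The treated over uninjected share was 3.14 and 1.12 for Pol I, 0.361 and 0.163 for Pol II and 0.946 and 4.22 for Pol III in columns 1 to 6 and 7 to 12 alone, 0.737 for Mediator in columns 1 to 6, and 0.179 for Pol II as a mean over cells. The cause was not tested.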
